A study of Mus musculus with 4 samples.

Results

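The genes described here are 6 mucin genes, read on arrays of mouse intestinal epithelial cells. Muc1, Muc3, Muc4, Muc13 and Muc20 encode mucins anchored in the cell surface, and Muc2 encodes the secreted, gel-forming mucin. Muc16, another mucin gene that the array could read, is not among the 6 and is given apart further below. They were chosen by name, as probe sets annotated with 1 of these gene symbols and no other. This gave 10 probe sets for the 6 genes, among 18193 genes on the array. The 4 groups, of 1 array each, were cells given IL-17A plus FGF2 (50 and 5 ng/ml), IL-17A alone (50 ng/ml) or FGF2 alone (5 ng/ml) for 6 h, and untreated cells. All 4 shared the same origin and culture, which was isolated crypts grown on fibronectin in medium with serum and insulin. Strain, age, the number of animals, any pooling and the culture time of the untreated cells were not given in the sources used here. The study asked how FGF2, a growth factor, and IL-17A, a cytokine of T cells, act together on intestinal epithelium.

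Mucins are long proteins whose serine- and threonine-rich stretches carry dense O-linked sugars. Goblet cells secrete Muc2, which forms the mucus gel over the epithelium, and the surface mucins stand on the apical membrane beneath it, where they form the glycocalyx. Shedding of the extracellular part of surface mucins and signalling through their short cytoplasmic tails are both known. Muc3 is a brush border mucin of enterocytes, and Muc13 is found on enterocytes and goblet cells.

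Before the levels, the promoter windows of the gene that differed most (Muc1) and of the pair that was lower in every stimulated group (Muc2 and Muc3) are shown, because these 3 genes carry the contrast described below. Each window runs from 250 bases before to 50 bases after the RefSeq transcription start in GRCm38.p6, 5′ to 3′ on the gene's strand. Capitals mark matches, on either strand, to 7 short motifs that were picked with these sequences in view. The motifs were those named for the TATA box, the GC box, STAT, kappaB, C/EBP, GATA and a direct repeat of nuclear receptor half-sites.
Muc1, chr3:89228806-89229105, + strand: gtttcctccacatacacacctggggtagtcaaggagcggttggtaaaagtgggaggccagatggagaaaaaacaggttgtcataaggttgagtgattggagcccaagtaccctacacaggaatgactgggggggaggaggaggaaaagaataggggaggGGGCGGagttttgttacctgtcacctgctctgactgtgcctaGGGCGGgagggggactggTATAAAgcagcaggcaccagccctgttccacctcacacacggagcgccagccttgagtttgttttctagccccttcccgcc
Muc2, chr7:141690090-141690389, + strand: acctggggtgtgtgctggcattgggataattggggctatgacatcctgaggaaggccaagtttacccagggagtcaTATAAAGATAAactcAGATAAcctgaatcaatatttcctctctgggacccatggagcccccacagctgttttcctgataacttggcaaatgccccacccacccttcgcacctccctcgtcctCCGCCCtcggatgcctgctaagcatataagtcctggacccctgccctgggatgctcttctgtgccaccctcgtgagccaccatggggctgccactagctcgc
Muc3, chr5:137165997-137166296, - strand: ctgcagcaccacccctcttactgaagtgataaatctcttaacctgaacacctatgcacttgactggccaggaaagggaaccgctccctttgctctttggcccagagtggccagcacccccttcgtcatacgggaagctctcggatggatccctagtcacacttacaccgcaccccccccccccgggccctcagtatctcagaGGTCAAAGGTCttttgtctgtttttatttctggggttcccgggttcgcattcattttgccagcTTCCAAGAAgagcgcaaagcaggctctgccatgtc

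The Muc1 window held a TATA box with its first base at position -31 and GC boxes at -91 and -49. The Muc2 window held GATA matches at -169 and -159, and a GC box at -52 on the other strand. The first GATA match shared a base with a match to the TATA box letters at -174. All of these are matches of letters, and whether any is a working element was not tested. The Muc3 window held the direct repeat at -48 and a STAT match at 16, whose pattern fits both strands at once and was counted once. All 32851 promoter windows of this length were searched for the same letters. The TATA box, spelled TATAAA, was in 13.6% of them. The GC box, GGGCGG, was in 35.7%. The GATA motif, AGATAA, was in 11.2%, and the STAT motif, TTCNNNGAA, in 8.3%. The C/EBP motif, TTGCNNAA, was in 10.8%. The kappaB motif, GGGA then any pair of bases then TTCC, was in 1.47%. The direct repeat, GGTCA then any base then AGGTC, was in 0.155%. The kappaB and C/EBP letters were in none of these 3 windows. All 6 genes had a window in the RefSeq table, and Muc13 had 2.

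Levels are MAS5 signals, the brightness of a probe set after the signal of mismatch probes is subtracted. Signals of different probe sets cannot be set against each other, so each gene is compared only with itself. The exception is the sums of marker signals given below, which mostly follow their brightest genes. A gene is represented by its brightest probe set, and signals under a floor of 89.8, the median of all signals, were raised to it before ratios were taken. All 6 genes were over the floor on all 4 arrays in that probe set, and the 12258 genes that exceeded it somewhere are called measured. Each group is a single array without replicates, which limits the precision, and nothing below was tested. As a guide to size, the ratio for a factor was taken once without and once with the other factor, on separate arrays. Over all measured genes these 2 readings differed with an SD of 0.41 on the log2 scale for genes of mean log2 signal under 8. The SD was 0.29 for 8 to 10, 0.18 for 10 to 12 and 0.13 over 12. Any true dependence of one factor on the other is part of that spread, and the floor lowers it among dim genes. The spread comes from differences between 2 ratios, on 4 arrays. With equal noise on each array it is wider than that of a single ratio or step, so it is a rough guide only.

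The cells carried epithelial transcripts strongly on every array. The keratin gene Krt8 had signals of 28156, 26776, 27124 and 24796 and the adhesion gene Epcam 18315, 16949, 17806 and 16578 on the combined, IL-17A, FGF2 and untreated arrays. Other cells of the gut wall were present too. All 6 fibroblast markers, all 5 endothelial markers and 4 of 5 mesothelial markers were measured. Some fibroblast signals were strong as well. In the same order of arrays, the collagen gene Col3a1 had 14100, 19755, 14149 and 18488, and Dcn had 15772, 13120, 12918 and 10810. Of 5 leukocyte markers 2 were measured, with Cd3e, Cd79a and Itgam under the floor on every array.

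Muc1, a surface mucin whose cytoplasmic tail takes part in signalling, was the mucin gene that differed most. Its signal was 516 with both factors, 425 with IL-17A, 144 with FGF2 and 111 in untreated cells. Both arrays with IL-17A were high and both without it were low. The signal was 3.82-fold higher with IL-17A than in untreated cells, and 3.59-fold higher with both factors than with FGF2, so the readings of IL-17A from separate arrays were 1.93 and 1.84 on the log2 scale.

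Muc1 was the single mucin gene at least 2-fold higher with IL-17A against untreated cells, 1 of 6, where 0.375% of measured genes were that far above and 0.228% that far below. It was again 1 of 6 with both factors against FGF2, where the shares were 0.367% and 0.269%, and 1 of 6 with both against untreated cells, at 4.63-fold, where they were 0.906% and 1.73%. Of all measured genes, 13 were as high as Muc1 or higher in the first of these comparisons, itself included, 15 in the second and 22 in the third. None of the other 5 was 2-fold different in any of the 5 comparisons.

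FGF2 went with smaller ratios for Muc1. The signal was 1.29-fold higher with FGF2 than in untreated cells and 1.21-fold higher with both factors than with IL-17A. These log2 ratios of 0.37 and 0.28 lay within the 0.41 spread of the readings for genes with a mean log2 signal under 8. Muc1 belongs there by its mean, but its log2 signals were 8.73 with IL-17A and 9.01 with both factors. Against the 0.29 spread of the next class, 8 to 10, the 0.37 would lie outside and the 0.28 just within. By this rough guide the ranking of combined and IL-17A cells is not settled, nor is that of FGF2 and untreated cells. The gap between IL-17A and FGF2 alone was 1.56 on the log2 scale.

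**Figure D1:**
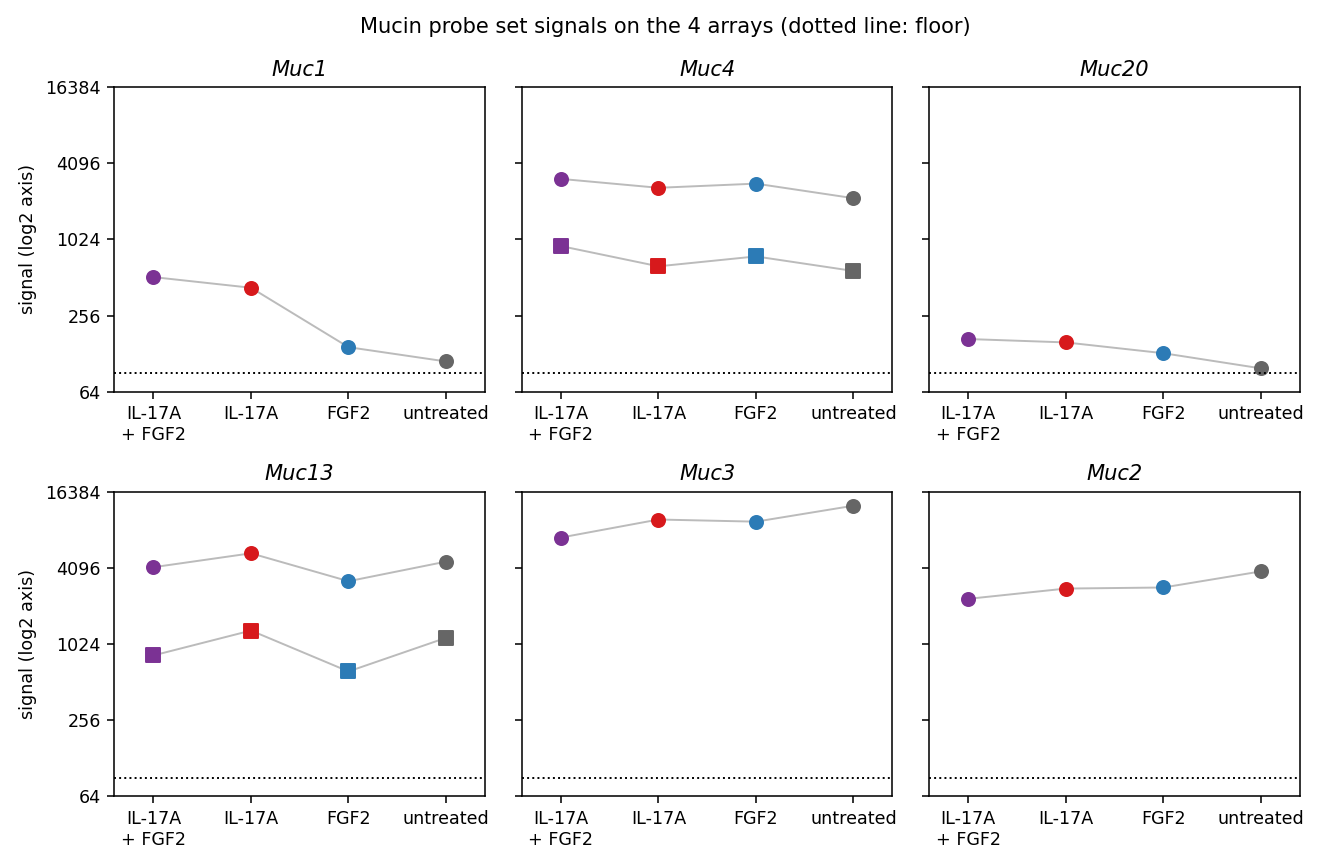
Signal of each mucin probe set that was over the floor on all 4 arrays, on a log2 axis, by array. Each point is 1 array, circles are the brightest probe set, squares a second probe set of the same gene, grey lines join the points of 1 probe set and the dotted line is the floor of 89.8. Muc1 stands at 516 and 425 on the arrays with IL-17A and at 144 and 111 on those without it, while Muc2 and Muc3 are lowest with both factors.

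Muc20, a small surface mucin that in human cells binds the receptor Met, had signals of 167 with both factors, 157 with IL-17A, 129 with FGF2 and 97.9 in untreated cells. All 3 stimulated arrays were above the untreated one, which lay just over the floor. It was 1.61-fold higher with IL-17A than in untreated cells and 1.29-fold higher with both than with FGF2. For FGF2 the readings were 1.32-fold and 1.06-fold higher. Each step between neighbouring levels, 0.09, 0.28 and 0.40 on the log2 scale, was under the 0.41 spread. A second Muc20 probe set was under the floor on every array and gave no ratio.

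Muc4, a large surface mucin known as a partner of the receptor ErbB2, was highest with both factors and lowest in untreated cells in the pair of probe sets that were over the floor. The brighter had signals of 3087, 2625, 2832 and 2172 on the combined, IL-17A, FGF2 and untreated arrays, and the other 908, 628, 752 and 577. FGF2 against untreated cells gave 1.30-fold higher in both. The combination against untreated cells gave 1.42-fold in the brighter and 1.57-fold in the other. IL-17A against untreated cells gave 1.21-fold and 1.09-fold. The brighter probe set is of a kind that can also detect related transcripts, and the third Muc4 probe set was under the floor on every array, with signals of 1.5 to 28.7.

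Muc4 and Muc20 are neighbours on mouse chromosome 16 and lie on opposite strands with overlapping ends in the RefSeq table. Both were higher in every stimulated group than in untreated cells. For Muc4 the higher of the single-factor ratios was with FGF2 (0.38 against 0.27 on the log2 scale), and for Muc20 with IL-17A (0.69 against 0.40). These comparisons share the untreated array.

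Muc13, a surface mucin with EGF-like domains, was higher where IL-17A was added and lower where FGF2 was added. The brighter probe set had signals of 4154 with both factors, 5350 with IL-17A, 3218 with FGF2 and 4598 in untreated cells. The other had 833, 1310, 622 and 1147 in the same order. In both, the IL-17A array was highest and the FGF2 array lowest.

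Read from separate pairs of arrays, FGF2 gave Muc13 1.43-fold lower against untreated cells and 1.29-fold lower with IL-17A present. In the second probe set these were 1.84-fold and 1.57-fold lower. IL-17A gave 1.16-fold higher against untreated cells and 1.29-fold higher with FGF2 present, and 1.14-fold and 1.34-fold higher in the second probe set. With both factors against untreated cells the ratios were 1.11-fold and 1.38-fold lower. The first of these came to a log2 ratio of 0.01 when the arrays were scaled to a common median, so its direction is not settled. The brighter probe set is of a kind shared between transcripts.

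Muc3, the brush border mucin, was lower with either factor and lowest with both. Its signals were 7130 with both factors, 9901 with IL-17A, 9522 with FGF2 and 12731 in untreated cells. The single-factor arrays lay close together, 0.06 apart on the log2 scale, and the other steps, 0.36 and 0.42, were larger than the 0.13 spread of readings for genes this bright. IL-17A gave 1.29-fold lower against untreated cells and 1.34-fold lower with FGF2 present. FGF2 gave 1.34-fold lower against untreated cells and 1.39-fold lower with IL-17A present. With both factors it was 1.79-fold lower than in untreated cells. RefSeq lists a related gene, Muc3a, close to Muc3 on chromosome 5, for which no probe set was named here, and whether the Muc3 probe set also reads it was not tested.

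Muc2, the goblet cell gel mucin, was likewise lowest with both factors and highest in untreated cells. Its signals were 2335 with both factors, 2815 with IL-17A, 2870 with FGF2 and 3847 in untreated cells. The single-factor arrays lay 0.03 apart on the log2 scale, with FGF2 the higher, where in Muc3 it was IL-17A. IL-17A gave 1.37-fold lower against untreated cells and 1.23-fold lower with FGF2 present, and FGF2 gave 1.34-fold and 1.21-fold lower in the matching pairs. With both factors it was 1.65-fold lower than in untreated cells.

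These differences were all under 2-fold, and were set beside genes of like brightness. Of 1103 measured genes with a mean log2 signal over 12, 24 were at least as far from 0 as Muc3 in the combination against untreated cells, 2.18% of them. Of 3257 genes between 10 and 12, 116 were as far as Muc2, 3.56%. With IL-17A alone against untreated cells the shares were 2.81% for Muc3 and 2.3% for Muc2, and with FGF2 alone 4.9% and 7.55%. For Muc13 with FGF2 the share was 2.99%. For Muc4 with both factors it was 7.49%, and for Muc20, among the dim genes, 7.92%. With IL-17A alone the share for Muc20 was 4.29%, and with FGF2 alone 25.9%.

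**Figure D2:**
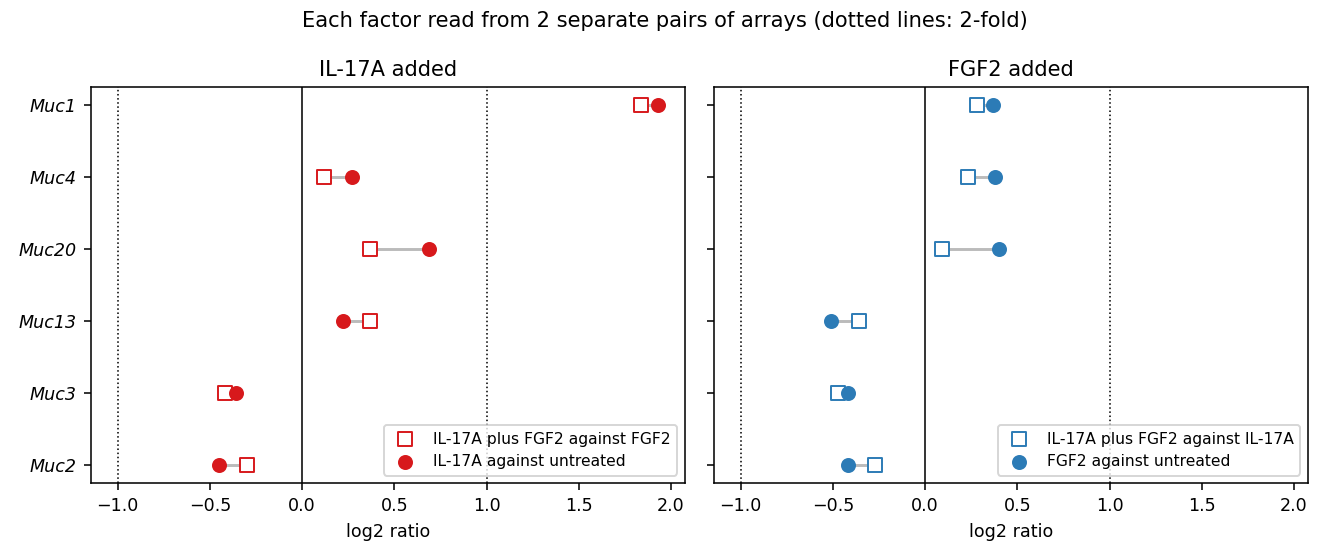
Log2 ratios of the 6 mucin genes for adding IL-17A (left) and FGF2 (right), each read once without and once with the other factor, on separate arrays. Filled circles are the factor against untreated cells, open squares the combination against the other factor alone, and dotted lines mark 2-fold. Muc1 with IL-17A, at 1.93 and 1.84, is the only point pair beyond 2-fold, and every gene has both readings of a factor on the same side of 0.

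In FGF2 against untreated cells no mucin gene, 0 of 6, was 2-fold higher or lower, where 0.473% of measured genes were that far above and 0.963% that far below. The same was so for the combination against IL-17A alone, at 0 of 6 and shares of 0.547% and 0.857%. In direction, 3 of 6 mucin genes (Muc1, Muc4 and Muc20) were above 0 and 3 (Muc2, Muc3 and Muc13) below in both of these comparisons. In both comparisons for IL-17A, 4 of 6 were above 0, Muc13 being the fourth. Among all measured genes 45.1% were above 0 with IL-17A and 46.1% with FGF2 against untreated cells.

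The joint response of each mucin gene lay near the sum of the single log2 ratios. Muc1 was at 2.21 against a sum of 2.30, Muc3 at -0.84 against -0.78, and Muc2 at -0.72 against -0.87. Muc4 was at 0.51 against 0.66, Muc13 at -0.15 against -0.30, and Muc20 at 0.77 against 1.09. The differences, from -0.31 for Muc20 to 0.15 for Muc2 and Muc13, were each smaller than the spread of such differences for genes of like brightness except for Muc13, whose 0.15 stood against an SD of 0.13. For Muc4 the difference was -0.15 in the brighter probe set and 0.15 in the other.

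The 10902 genes over the floor on all 4 arrays were ranked by the Euclidean distance of the 3 log2 ratios against untreated cells. Symbols of clones and gene models were skipped. The nearest to Muc1 were then Clca3b (distance 0.45), Lcn2 (0.58), Noxo1 (0.76), Clca3a2 (0.76) and Sprr2f (0.84). Clca3b and Clca3a2 belong to the calcium-activated chloride channel regulator family, Lcn2 encodes lipocalin-2, which binds bacterial siderophores, and Noxo1 a subunit of an epithelial NADPH oxidase. Clca3b had signals of 2554 with both factors, 2784 with IL-17A, 648 with FGF2 and 637 in untreated cells, high on the same arrays as Muc1. The genes nearest to Muc3 were Sh3gl2 (0.02), Ablim1 (0.06), Zhx3 (0.06), Mpp1 (0.08) and Ncoa1 (0.08). Likeness here rests on 4 arrays and on the brightest probe set. A dimmer probe set of Zhx3 had the opposite direction with both factors against untreated cells, at 1.26 on the log2 scale. With IL-17A against untreated cells, a dimmer probe set of Ncoa1 and one of Ablim1 were at 0.01. The brightest probe sets of these genes were at -0.32 and -0.37. Sh3gl2 lay near the floor, with signals of 99.7 to 179.

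The enzymes that build O-linked glycans on mucins were followed as a list of 33, of which 31 were on the array and 26 measured. With IL-17A against untreated cells 0 were 2-fold different, 21 of 26 were below 0 and the median log2 ratio was -0.17, where all measured genes had a median of -0.01 and 52.8% below 0. With FGF2 0 were 2-fold different, 19 were below 0 and the median was -0.13. With both factors against untreated cells 2 were 2-fold lower and 0 higher, 17 were below 0 and the median was -0.23, against 0.00 for all measured genes. That median was -0.08 with the arrays scaled to a common median, and -0.05 with probe sets open to related transcripts left out. Against IL-17A and against FGF2 the combination gave medians of -0.09 and -0.04, which the common median turned to 0.03 and 0.01, with 0 genes 2-fold different.

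The 2 lower enzymes were Gcnt1, which starts the core 2 branch of O-glycans, and B4galnt2, which makes a blood-group-like epitope of the gut. Gcnt1 had signals of 434 with both factors, 743 with IL-17A, 698 with FGF2 and 1139 in untreated cells. B4galnt2 had 892, 1285, 1321 and 1788. Both were lowest with both factors and highest in untreated cells, as were Muc2 and Muc3. With both factors Gcnt1 was 2.63-fold and B4galnt2 2.01-fold lower than in untreated cells. A second probe set of Gcnt1 gave a log2 ratio of -1.01, and 2 further probe sets of B4galnt2 gave -0.74 and -0.47. The brightest enzymes of the list differed little in the same comparison: Galnt3 was 1.03-fold, C1galt1 1.03-fold and Galnt1 1.09-fold higher.

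Of 21 goblet cell secretory genes, 20 were on the array and 16 measured, and 1 of them was 2-fold lower with IL-17A, with FGF2 and with both, each against untreated cells. This was Agr2, a disulfide isomerase needed for Muc2 production. Its signals were 70.7 with both factors, 185 with IL-17A, 133 with FGF2 and 548 in untreated cells, so that it was 2.97-fold lower with IL-17A, 4.12-fold lower with FGF2 and at least 6.11-fold lower with both, as its signal there was under the floor. The medians of the list were -0.02, -0.18 and -0.21. The brightest members were close to untreated levels or lower with both factors, Tff3, the trefoil peptide secreted with Muc2, at 1.05-fold lower, Clca1 at 1.25-fold lower and Zg16, a lectin of mucus, at 1.52-fold lower.

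Markers of the cells that make these mucins are given beside them. The 8 goblet markers, all measured and several of them in the secretory list, had summed signals of 35551 with both factors, 40557 with IL-17A, 36257 with FGF2 and 44603 in untreated cells. Much of that sum was Tff3, at 16041 with both factors against 16775 in untreated cells, and Zg16, at 9448 against 14394. The medians of the ratios that follow weigh each marker alike. Their median log2 ratio was -0.20 with IL-17A, -0.50 with FGF2 and -0.48 with both against untreated cells, and 1 of 8, Agr2, was 2-fold lower in each. With IL-17A 2 of 8 were above untreated cells, Clca1 at 1.18-fold and Fcgbp at 1.07-fold. Of 10 enterocyte markers, 9 were on the array and 7 measured, with Fabp1 and Lct under the floor, and the 9 summed to 28143, 29916, 37890 and 41314. Their median log2 ratio was -0.92 with IL-17A, -0.49 with FGF2 and -1.36 with both against untreated cells, and 5 of 7 were 2-fold lower with both, among them Slc26a3. Krt20, which gave much of the sum, was 1.02-fold higher with both, at 19681 against 19235 in untreated cells. The 8 epithelial markers summed to 124670, 121476, 122484 and 116809, with 0 of 8 2-fold different in any comparison. With both factors against untreated cells 6 of 8 were above 0, but Vil1 was 1.62-fold lower, at 2655 against 4297. In bulk RNA fewer goblet cells or enterocytes and less mucin RNA per cell cannot be told apart. Markers of other cells differed as well. The 6 fibroblast markers summed to 43475, 56386, 41016 and 52918 and the 5 endothelial markers to 7677, 4555, 7052 and 4695 on the combined, IL-17A, FGF2 and untreated arrays, the fibroblast sum lower and the endothelial sum higher on both arrays with FGF2. The fibroblast markers disagreed: with both factors against untreated cells 4 of 6 were below 0, and Dcn and Lum were 1.46-fold and 1.29-fold higher. The part of these marker shifts in the mucin values was not tested.

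**Figure D3:**
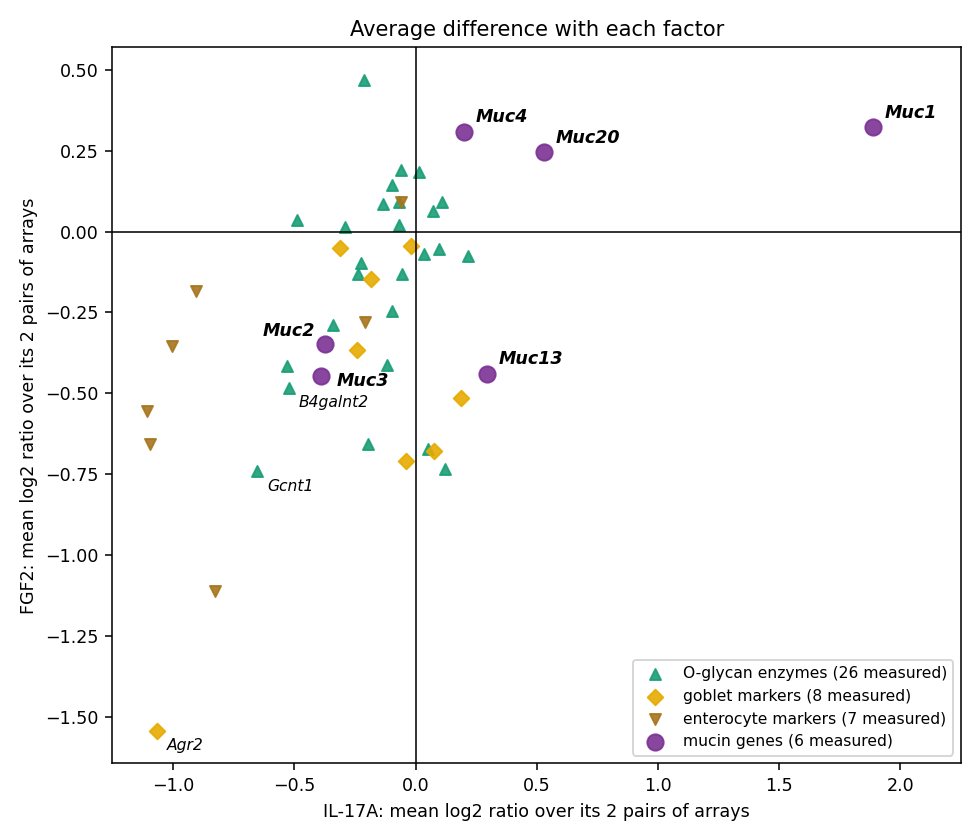
Average log2 ratio of each gene for IL-17A (horizontal axis) and FGF2 (vertical axis), each the mean over the 2 pairs of arrays that differ by that factor. Purple circles are the 6 mucin genes, with O-glycan enzymes, goblet markers and enterocyte markers in other colours and shapes. Muc1 stands far to the right, Muc2 and Muc3 lie lower left near B4galnt2, and Muc13 lies lower right.

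Among 25 regulators linked to goblet cell fate or mucin genes, 23 were on the array and 22 measured. With IL-17A, with both factors against untreated cells and with both against FGF2, 1 of 22 was 2-fold higher. This was Nfkbiz, a nuclear co-regulator of NF-kB, with signals of 5565 with both factors, 5447 with IL-17A, 1794 with FGF2 and 1901 in untreated cells. It was thus high on the arrays where Muc1 was high, at 2.87-fold above untreated cells with IL-17A. Of its other probe sets one gave a log2 ratio of 1.63 in that comparison and one -0.35, so they disagree. The brightest others, Hif1a, Cebpb and Cebpd, were 1.39-fold, 1.24-fold and 1.34-fold higher with both factors than in untreated cells. In the same comparison 14 of 22 were below 0 and 8 above, where 49.6% of all measured genes were below 0. Among the lower were Spdef, also a goblet marker, at 1.52-fold and Cdx1 at 1.54-fold lower. The medians of the list were -0.05, -0.11 and -0.07 with IL-17A, FGF2 and both.

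Of 21 proteases that cut mucins and partners that bind them, all 21 were on the array and 20 measured. With both factors against untreated cells 2 were 2-fold lower and 0 higher. Mep1b, the meprin that cuts Muc2 near its start and lets mucus detach, had signals of 387 with both factors, 882 with IL-17A, 519 with FGF2 and 947 in untreated cells, low on both arrays with FGF2. Slc26a3, a chloride and bicarbonate exchanger that also counts among the enterocyte markers above, was 3.83-fold lower with both factors. The brightest members, Lgals4, Ctnnb1 and Ezr, lay within 1.16-fold of untreated cells. The list medians were 0.00 with IL-17A, -0.11 with FGF2 and -0.07 with both.

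**Figure D4:**
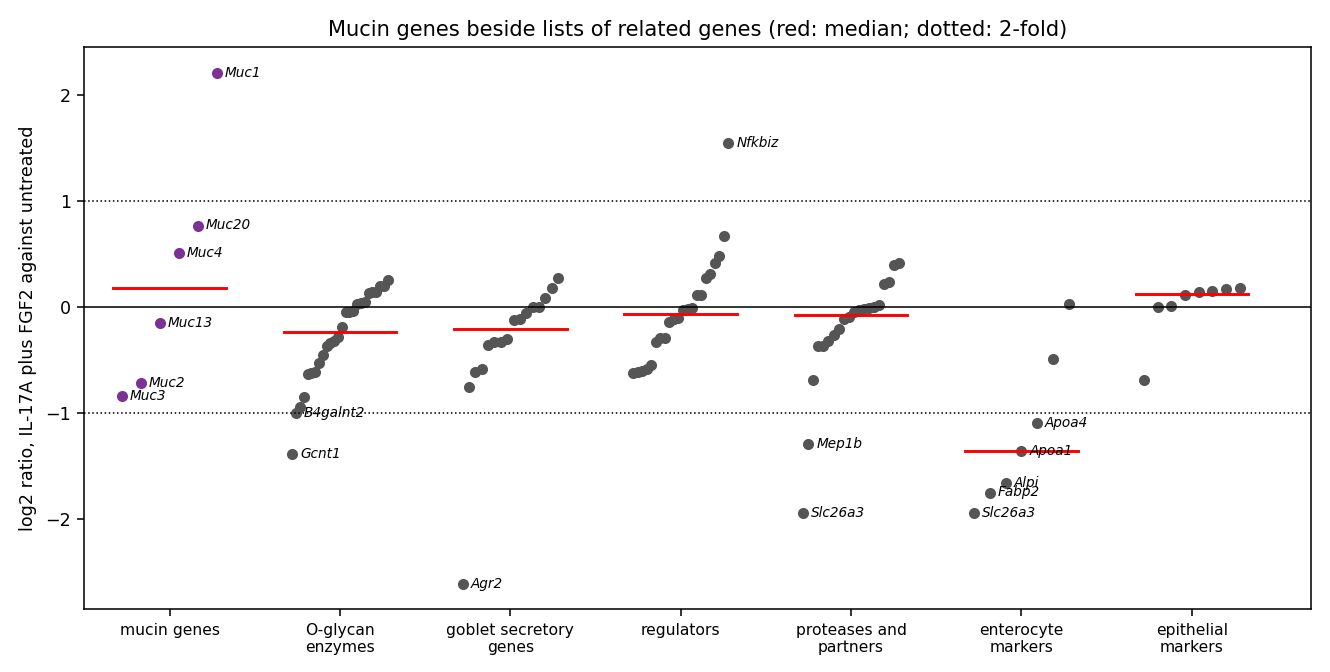
Log2 ratios of the combination against untreated cells for the 6 mucin genes and for measured genes of 6 lists, each point a gene, sorted within its list, with the median as a red line and 2-fold as dotted lines. Muc1 is the only mucin gene beyond 2-fold, and Gcnt1, B4galnt2, Agr2, Mep1b and Slc26a3 are beyond 2-fold below, as are 5 of the 7 enterocyte markers.

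Apart from Muc16, the further mucin genes on the array gave no signal over the floor. Of 11 further mucin symbols 6 were on the array and 1 was measured, Muc16, a surface mucin of mesothelium and other epithelia. Its signals, over the floor on all 4 arrays, were 154 with both factors, 132 with IL-17A, 155 with FGF2 and 198 in untreated cells. The log2 ratios of Muc16 against untreated cells were -0.59 with IL-17A, -0.36 with FGF2 and -0.36 with both. It is not in the counts of 6 mucin genes above. Muc5ac, Muc5b, Muc15, Mucl1 and Mucl2 were under the floor on every array. The mesothelial marker Msln had signals of 3330, 4200, 4597 and 4942 in the same order of arrays. Of the 5 mesothelial markers 4 were measured. Upk1b had 198, 177, 229 and 276, lowest with IL-17A as was Muc16. Wt1 had 110, 197, 135 and 235, lowest with both factors as was Msln. Of the rest, 1 was over the floor on a single array and 1 under it on every array. No ratio was taken for the genes under the floor.

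For orientation, 13 of 14 measured genes known to respond to IL-17A were 2-fold higher with IL-17A than in untreated cells, 3 of 14 with FGF2 and 10 of 14 with both, with median log2 ratios of 1.94, 0.00 and 1.55. Muc1, at 1.93, had a ratio with IL-17A close to the median of that list. The 13 measured feedback and target genes of FGF signalling had medians of -0.01, 0.23 and 0.41, with 0 of 13 2-fold different against untreated cells. Both lists were chosen with earlier results of these data known.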

How the data were processed

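RNA from cultured mouse gut epithelial cells was hybridised to 4 Affymetrix arrays, 1 per group. Per the labels' protocols, total RNA was purified on columns and labelled with a 3′ in vitro transcription kit. Per the submitters' processing notes the authors used MAS5, and the deposited values are log2 signals. After antilog, each array's 2% trimmed mean was 500, a common scaling. Version, annotation and genome build were not given in the sources used here.

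Of 45101 probe sets, 64 controls were left out. The platform annotation gave 1 symbol to 34945 of the others, several to 932 and none to 9160. The 6 member genes were matched to RefSeq (GRCm38.p6) by Entrez identifier. The floor was the median of non-control signals (log2 6.49). Lower signals were raised to it, and a gene above it anywhere was called measured. Log2 ratios were taken between arrays, and called where at least 2-fold. No test or p-value was computed, since there is 1 array per group. Named genes were all member probe sets, list genes at least 2-fold different in any of 5 comparisons, the 3 brightest genes of each list, and the 5 genes nearest in pattern to the 2 members of widest range. Symbols of clones and gene models were skipped. Members and lists were chosen with earlier results of these data known. Muc16, Msln, Krt8, Epcam, Vil1, Fcgbp, Lum, Spdef and Cdx1 were named after their values were seen where the rule did not name them. The alternatives were other scalings, floors, probe set rules and fold thresholds. Python 3.11.15, numpy 2.4.6, pandas 2.3.3, scipy 1.17.1 and matplotlib 3.10.9 were used, and the calculation was tested on simulated arrays.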

Additional observations from a re-analysis of the deposited data

How the results depend on the processing

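The counts of mucin genes at least 2-fold higher were 1 of 6 (Muc1) in the main setting with IL-17A and with both factors against untreated cells, and with both against FGF2. They were 0 in all 3 with the floor at the 75th percentile, because Muc1 then exceeded the floor only on the combined array, and its log2 ratios became 0.00, 0.15 and 0.15. With the floor added to every signal the ratios were 1.36, 1.59 and 1.37. At a 1.5-fold threshold 2 genes were higher with IL-17A and 2 with both factors against untreated cells (Muc1 and Muc20), and 2 were lower with both (Muc2 and Muc3). At that threshold 1.44% of measured genes were higher with IL-17A, and 3.34% were higher and 6.52% lower with both. With the mean of all probe sets 1 gene was 2-fold lower with both factors against IL-17A. This was Muc4 at -1.11, where the mean takes in a probe set under the floor on every array, and 1.14% of measured genes were that far below. With the mean of the probe sets over the floor, an alternative chosen after seeing the data, the same ratio was 0.38. Without the probe sets open to related transcripts the joint response of Muc4 exceeded the sum of its single ratios by 0.15 on the log2 scale, and Muc13 was at -0.88 with FGF2. Of 270 alternative values of the 30 mucin log2 ratios, 5 changed sign, and they were in Muc4, Muc13 and Muc20. A ratio that fell to 0.00 was not counted as a change of sign. Many of the 270 values could not move. Muc1, Muc2 and Muc3 have 1 probe set each, which every probe set rule keeps. A lower floor or none leaves signals already over the floor as they were. The count therefore says little about stability. With both factors against untreated cells the values of Muc2 stayed between -0.74 and -0.57 and those of Muc3 between -0.98 and -0.68. Scaling to a common median moved the median of measured genes to 0.14 in that comparison, the mucin ratios with it. With both factors against untreated cells the list medians ran from -0.32 to -0.05 for the O-glycan enzymes, from -0.31 to -0.07 for the goblet secretory genes, from -0.07 to 0.11 for the regulators and from -0.13 to 0.07 for the proteases and partners, so the last pair had no settled sign. The share of all measured genes 2-fold higher with IL-17A was 1.31% with the floor at the 25th percentile and 0.266% at the 75th. No paired analysis was possible because each group has 1 array. Signal over background limits Muc1 and Muc20 most, since their untreated signals of 111 and 97.9 lie near the floor of 89.8.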

Other observations

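The chromosomal neighbours of the mucin genes, chosen by position after the mucin values were seen, were read from the RefSeq table as protein-coding genes within 100 kb. Around Muc1 on chromosome 3 there were 15, of which 10 were measured, and 0 of 10 were 2-fold different in any of the 5 comparisons. With IL-17A against untreated cells their log2 ratios ran from -0.47 for Pklr, the liver-type pyruvate kinase, to 0.21 for Trim46, while Muc1 was at 1.93. With both factors against untreated cells Pklr was at -0.84, and with FGF2 alone at -0.43.

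Near Muc2 on chromosome 7 lie Muc6, Muc5ac and Muc5b, other gel-forming mucin genes. Muc5ac and Muc5b were under the floor on every array, and Muc6 was not analysed here. The measured neighbour of Muc2, Ap2a2, was at -0.03 with both factors against untreated cells, where Muc2 was at -0.72. Near Muc3 on chromosome 5, Ap1s1 was at 0.04 and Trim56 at 0.21, where Muc3 was at -0.84. Near Muc4 and Muc20 on chromosome 16, Tnk2, Rubcn and Fyttd1 were at -0.12, -0.38 and 0.11, where Muc4 was at 0.51 and Muc20 at 0.77.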
